A study of Mus musculus with 12 samples.

Results

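Regulatory T cells (Tregs) that carried the insulin-specific T cell receptor (TCR) 12-4.4m1 were compared between the pancreatic islets and the spleen. The 6 libraries that met this description, 3 from islets and 3 from spleen, were chosen by their titles and are 6 of the 12 of the series. Every group came from NOD mice, a strain that develops autoimmune diabetes, aged 6.8 weeks, and no further treatment is given in the labels. The animals were retrogenic, so blood cells had grown from bone marrow into which TCR genes had been introduced, and the design describes mice with 2 introduced TCRs, the low affinity 12-4.4m1 and the high affinity 4-8. The other 6 libraries are 4-8 Tregs of the same tissues. The antigen of both receptors, insulin, is made in islet beta cells, so the comparison asks what low affinity Tregs express in the tissue that holds their antigen against what they express in a lymphoid organ. The labels name neither the sorting markers nor the mice behind each library, and separate mice are not stated, so a p-value here reflects only library-to-library spread.

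Tregs are CD4+ T cells that hold back immune responses. Their identity rests on the transcription factor Foxp3, on the high affinity IL-2 receptor chain Il2ra and on the inhibitory receptor Ctla4, and they act through receptors, through cytokines such as IL-10 and TGF-beta, and in tissues through repair factors such as amphiregulin. When a T cell receives signals through its TCR, early genes that encode the AP-1 factors Fos and Jun, the nuclear receptors of the Nr4a family and the Egr factors are transcribed within a short time, and so are the phosphatases and other brakes that end the signal. T cells that circulate through lymphoid organs use receptors such as S1pr1 and factors such as Klf2, while cells held in tissues carry Cd69 and chemokine receptors of inflamed sites.

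The deposited values were regularized log (rlog) values, on a log2 scale in which a difference of 1 is a doubling, for 24421 listed rows in the 6 libraries. Tests covered the 8438 genes that reached a mean normalized count of 10 over all 6 libraries. These mean counts summed to 918913, and the depth of a single library is not known from these files. Library values correlated across the tested genes, which are not independent replicates, at 0.965 to 0.972 among islet libraries, at 0.978 to 0.986 among spleen libraries and at 0.952 to 0.964 between the tissues. The median SD of 3 libraries was 0.220 in islets and 0.159 in spleen, and the islet SD was the larger in 65.5% of genes. The titles of islet replicates 1 and 2 follow another style than those of islet replicate 3 and the spleen libraries. For spleen replicate 2 of both TCRs, the descriptions list the tissue tables of the other TCR, against the titles and the table columns, which were followed here, so whether these libraries were exchanged cannot be told from the labels. Without spleen replicate 2 of 12-4.4m1 the count of genes called by limma fell from 575 to 313. Xist, which is transcribed from the inactive X chromosome of female cells, was 9.63, 10.19 and 7.77 in islet replicates 1 to 3 and 8.33, 10.42 and 10.29 in spleen replicates 1 to 3. The Y-linked Ddx3y was 6.54, 6.02 and 7.08 in islets and 6.90, 5.77 and 5.60 in spleen, so each library held transcripts of both and neither gene separated the tissues.

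Cell identity was checked first. Foxp3 was 9.31, 9.04 and 9.36 in the islet libraries and 9.14, 8.95 and 9.36 in the spleen libraries, ranges that overlap (islet minus spleen 0.08 ± 0.15 SE in log2, limma adjusted p = 0.812). Il2ra, the IL-2 receptor alpha chain, was 7.99, 7.77 and 8.74 against 8.39, 8.15 and 8.59 (-0.21 ± 0.19 SE, adjusted p = 0.591). Ikzf2, which encodes the Treg factor Helios, had a mean of 10.55 ± 0.10 for islets against 10.83 ± 0.19 for spleen (SD over 3 libraries), and Tnfrsf18, the costimulatory receptor GITR, was 9.98 ± 0.39 in islets and differed by -0.02. None of these 4 genes passed the test. Ctla4, also named above as an identity gene, did pass and was higher in islets (2.21 ± 0.16 SE, limma adjusted p = 2.23e-10). Of the T cell genes Cd3d, Cd3e, Cd3g and Cd4, only Cd4 passed (0.86 ± 0.14 SE, adjusted p = 0.000241), at 9.37 ± 0.12 in islets and 8.51 ± 0.13 in spleen. The labelled cell type thus had its defining transcripts in all 6 libraries.

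In islets, 391 genes were higher (4.63% of those tested) and 184 lower (2.18%) than in spleen at an adjusted p of 0.05 by limma with Benjamini-Hochberg adjustment. Counts of list members given below are to be read beside these shares, and no set test was run. The islet and spleen libraries did not overlap in 24.1% of all tested genes and in 559 of the 575 called. Large differences were mostly increases: 96 genes were higher by a log2 difference of at least 1 and 24 by at least 2, against 8 and 0 genes lower by as much. The median over all tested genes was -0.00. Of the calls, 68.0% were higher, and 57.9% were after quantile normalization of the 6 libraries (327 higher, 238 lower). The count rested most on the spleen libraries, with 288 calls without spleen replicate 1 and 313 without spleen replicate 2. When each library was omitted in turn, 210 of the 575 genes stayed past the threshold every time, 175 higher and 35 lower. Genes named below as risen or fallen did so too, unless a library is named whose omission ended the call. Without both islet libraries of the other title style there were 784 calls, and Cxcr6, Gcc2, Ptger2, Pfkp, Dgkz, Ccnd2 and 9 other named genes were no longer called.

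**Figure D1:**
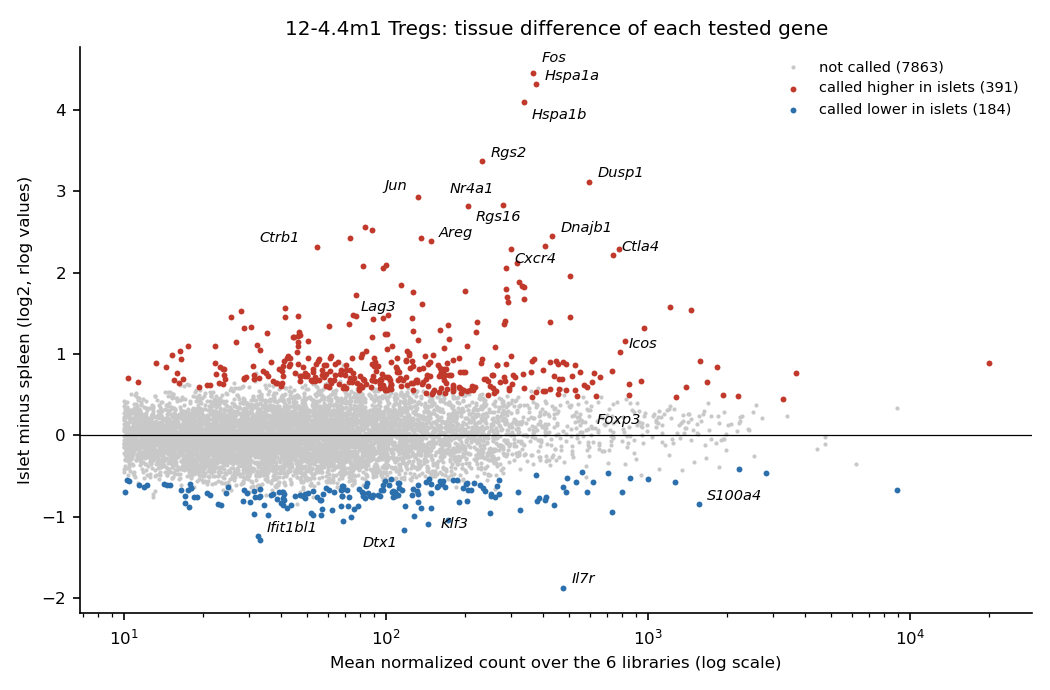
Each point is 1 of the 8438 tested genes, with its mean normalized count over the 6 libraries on a log axis and its islet minus spleen difference in log2 units of rlog values. The 391 genes called higher reach 4.46 (Fos), and the 184 called lower reach -1.87 (Il7r).

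The authors' deposited DESeq2 table of the same comparison called 398 genes (4.72% of those tested) and gave all 575 genes the same sign, with 387 of them also called there. The authors' deposited Cuffdiff table called 905 of 6159 genes with a test (14.7%), 491 of the 575 among them. Both tables called 346 of the 575. Rlog values are pulled together at low counts, so a log2 difference below is often smaller than in those tables.

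The largest increases were in genes that cells switch on within a short time of a stimulus. Fos, a subunit of the AP-1 transcription factor, was 8.996, 8.976 and 8.739 in the islet libraries and 4.339, 4.122 and 4.873 in the spleen libraries. Every islet library was far above every spleen library, and the difference was 4.46 ± 0.19 SE in log2, a 22.0-fold difference of rlog values (limma adjusted p = 1.51e-14). In the authors' deposited table the FPKM of Fos was 379 in islets and 1.11 in spleen, with a Cuffdiff q of 0.0852, and its DESeq2 adjusted p was 5.83e-19. The gene lies on chromosome 12 at 85473890 to 85477273 (GRCm38) and is annotated as protein-coding. Of the 13 tested AP-1 and ATF factors, 8 rose and 0 fell, with a median of 0.95. Jun, the partner of Fos, was 7.32, 7.59 and 7.38 in islets and 4.63, 4.16 and 4.69 in spleen (2.94 ± 0.19 SE, adjusted p = 3.23e-11). Fosb rose by 2.56 ± 0.25 SE (adjusted p = 8.44e-08) and had the widest islet spread of this group, at 6.03, 7.26 and 6.34. Fosl2 rose by 2.42, Junb by 1.96, Jund by 1.84, Crem by 0.95 and Atf3 by 0.93. Batf, an AP-1 factor that effector Tregs use, was 7.79 ± 0.52 in islets and 8.01 ± 0.22 in spleen and did not pass (adjusted p = 0.572).

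Genes of the list named for the early response to antigen were also higher, and what raised them was not tested. Any difference in cell preparation between islets and spleen cannot be told apart from the tissue itself. Nr4a1, a nuclear receptor gene that follows TCR signal strength, was 8.76, 8.74 and 8.25 in islets and 5.14, 5.74 and 6.37 in spleen (2.83 ± 0.22 SE, adjusted p = 1.52e-09). The spleen libraries spread over more than a doubling, yet the lowest islet library was above the highest of them. Its relatives Nr4a3 (2.42 ± 0.19 SE, adjusted p = 1.97e-09) and Nr4a2 (2.09 ± 0.20 SE, adjusted p = 3.61e-08) rose as well. Of the 20 tested genes of this list, 11 rose and 0 fell, with a median of 0.79. Among the others were Klf6 (1.46), Egr2 (1.37), the tissue retention receptor Cd69 (1.35), Egr1 (1.25), Irf4 (0.91) and Irf8 (0.87, adjusted p = 0.0582 without spleen replicate 2). Members that did not pass included Egr3 at 0.19, Nfatc1 at 0.37, the growth factor gene Myc at 0.50 and Id3, a repressor that holds T cells in rest, at -0.57 (adjusted p = 0.177). Myc was 5.57, 6.24 and 6.14 in islets and 5.29, 5.39 and 5.77 in spleen, ranges that overlap.

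**Figure D2:**
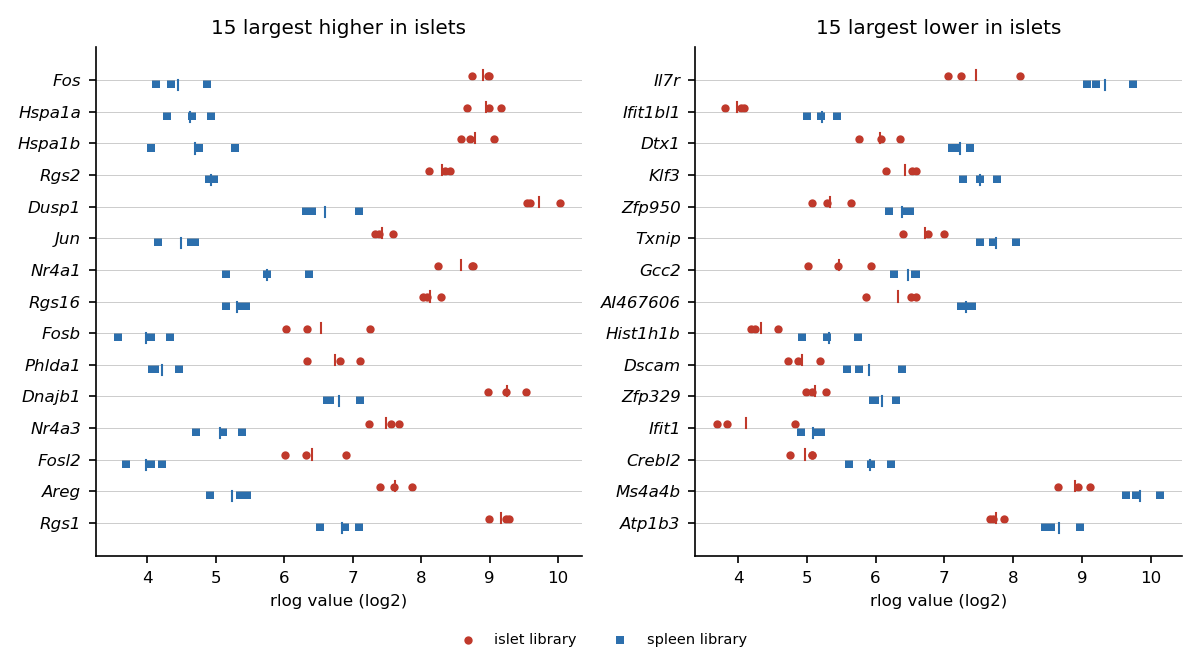
Each row is a gene and each mark the rlog value (log2) of 1 library, with islets as circles and spleen as squares and short lines at the group means. The 30 genes were chosen among called genes whose islet and spleen libraries do not overlap. They run from Fos at 8.74 or more against 4.87 or less to Il7r at 8.10 or less against 9.07 or more.

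Genes for proteins that limit signals of this kind were higher too. The MAP kinase phosphatases, which remove phosphate from ERK, JNK and p38, had 8 tested members, of which 6 rose and 0 fell, and the median of 1.09 was the highest of the lists of 6 or more tested genes. Dusp1 was 9.59, 9.55 and 10.03 in islets and 6.31, 6.40 and 7.09 in spleen (3.12 ± 0.19 SE, adjusted p = 8.60e-12), an 8.71-fold difference. Dusp4 (1.76), Dusp5 (1.71), Dusp14 (1.15), Dusp10 (1.02) and Dusp2 (0.85) rose too. Dusp6 was 0.56 and Dusp7 0.16, and neither passed. The RGS proteins shorten signals from G-protein-coupled receptors, chemokine receptors among them. Rgs2 was 8.11, 8.43 and 8.35 in islets and 4.90, 4.97 and 4.90 in spleen, with little spread within either tissue (3.37 ± 0.17 SE, adjusted p = 2.48e-13). Rgs16 rose by 2.82 ± 0.17 SE (adjusted p = 8.60e-12) and Rgs1 by 2.33 ± 0.16 SE (adjusted p = 2.16e-10). Rgs3 and Rgs10 passed at 0.69 and 0.68, which makes 5 of 7 higher, but the count was 3 without islet replicate 1 or without spleen replicate 1.

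Of the 19 tested NF-kB subunits and feedback genes, 5 rose and 0 fell, with a median of 0.24. Tnfaip3, which encodes the deubiquitinase A20 that ends NF-kB signalling, was 10.13 ± 0.18 in islets and 7.84 ± 0.11 in spleen (2.29 ± 0.14 SE, adjusted p = 2.56e-11). The nuclear IkB proteins Nfkbid (1.78), Nfkbiz (1.40) and Bcl3 (1.03) rose. The subunit Rel, needed for Treg development, rose by 0.71 (adjusted p = 0.107 without spleen replicate 1). Nfkbia, the classical feedback inhibitor, was 9.89 ± 0.42 in islets and 9.60 ± 0.03 in spleen and did not pass, and Rela, Relb, Nfkb1 and Nfkb2 lay between -0.10 and 0.24. Among 14 regulators of mRNA decay and proliferation, 7 rose and 0 fell: the mRNA-binding proteins Zfp36l2 (1.28), Zfp36l1 (1.16) and Zfp36 (0.99), the antiproliferative Btg1 (0.80), Btg2 (0.78) and Tob2 (0.64), and the nuclease Zc3h12d (0.86). Btg2, Tob2 and Zc3h12d lost the call without 1 or more single libraries, such as spleen replicate 1 for Zc3h12d (adjusted p = 0.142).

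Heat shock chaperones formed the other group of very large increases. Hspa1a, an inducible Hsp70 gene, was 8.67, 9.17 and 8.99 in islets and 4.65, 4.28 and 4.93 in spleen, a difference of 4.32 ± 0.19 SE in log2 (20.0-fold, adjusted p = 1.51e-14). Its near-identical neighbour Hspa1b was 8.72, 9.06 and 8.59 against 4.75, 4.05 and 5.28 (4.09 ± 0.22 SE, adjusted p = 1.61e-12). Reads of these copies could be split between them by the counting, so their separate values are uncertain. Of 16 tested chaperone genes, 11 rose and 0 fell, with a median of 0.93. Besides the Hsp70 pair, these were the co-chaperone Dnajb1 (2.45), Hsph1 (2.29), Hsp90aa1 (1.54), the constitutive Hspa8 (1.32), Dnaja1 (1.08), the mitochondrial pair Hspe1 (0.93) and Hspd1 (0.89), Hsp90ab1 (0.92) and the Hsp70 cofactor Bag3 (0.84). Bag3 lost the call without islet replicate 2, its highest islet library (adjusted p = 0.122), or without spleen replicate 2 or 3. The chaperone of the endoplasmic reticulum Hspa5 was 0.13 and did not pass, and the heat shock factor gene Hsf1 was -0.16.

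**Figure D3:**
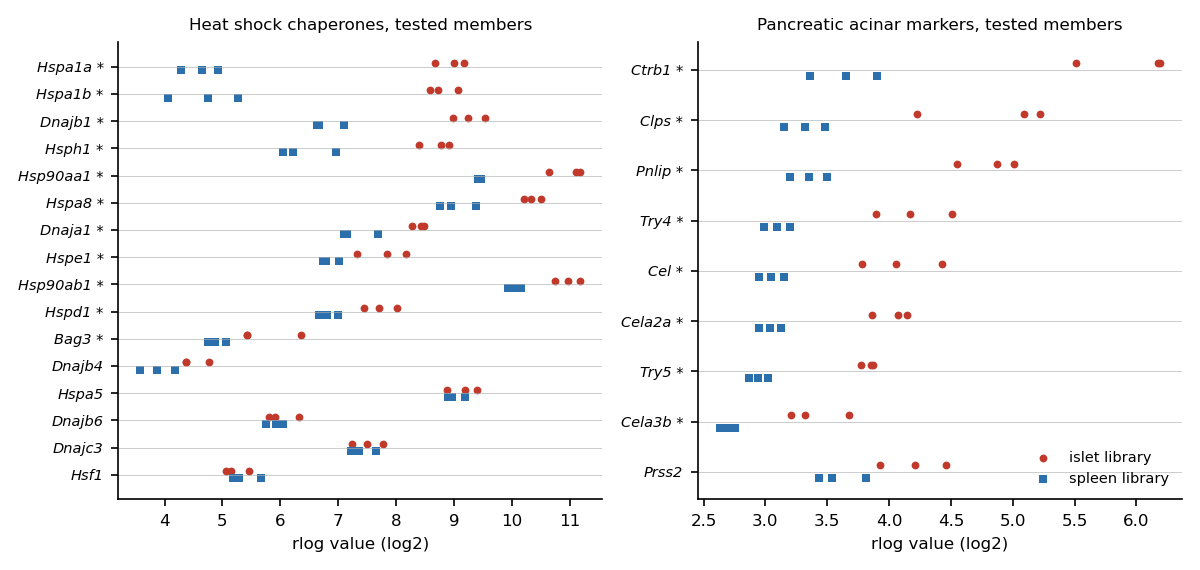
Each row is a tested gene and each mark the rlog value (log2) of 1 library, islets as circles and spleen as squares, and a star marks an adjusted p under 0.05. In the left panel 11 of 16 chaperone genes and in the right panel 8 of 9 acinar genes were called higher in islets. Those 8 had a group FPKM of 0 in spleen and passed the filter on mean counts through the islet libraries.

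Promoter sequences were read for these groups because their members moved together. RefSeq promoters on GRCm38.p6 cover 250 bases before to 50 bases after a start site, and 5 motifs were searched there on both strands: the heat shock element as GAANNTTC, the cyclic AMP element as TGACGTCA, the AP-1 site as TGANTCA, the NF-kB site and the CArG box. Of the 11 chaperone genes that rose, 8 had a promoter in the table, and 7 of these held GAANNTTC in at least 1 promoter (87.5%). Shares of genes count a gene once if any of its promoters held the letters, while shares of all promoters count each promoter. The same letters were in 7.86% of all 32851 promoters and in 6.86% of the 6532 tested genes with a promoter. In the 391 genes that rose, 303 had a promoter and 10.2% of these held them, against 8.97% of the 145 among the genes that fell. Heat shock factors are known to bind this kind of repeat, and no binding was measured here. The match is the same in Hspa1a and Hspa1b, 104 bases before the start. In Hspe1 and Hspd1, which are transcribed away from each other, it is a single stretch at 55088064 to 55088071 of chromosome 1, which lies 84 bases before the start of Hspe1 and 139 before that of Hspd1. Hsph1 and Bag3 held it after the start, and Dnajb1 held none. The promoters of 3 chaperone genes follow, 5′ to 3′ on the strand of the gene and up to the base before the start, with the matched letters in capitals: Hspa1a at chr17:34972157-34972406 (minus strand), Hspe1 at chr1:55087898-55088147 (plus strand) and Dnaja1 at chr4:40722218-40722467 (plus strand).
Hspa1a: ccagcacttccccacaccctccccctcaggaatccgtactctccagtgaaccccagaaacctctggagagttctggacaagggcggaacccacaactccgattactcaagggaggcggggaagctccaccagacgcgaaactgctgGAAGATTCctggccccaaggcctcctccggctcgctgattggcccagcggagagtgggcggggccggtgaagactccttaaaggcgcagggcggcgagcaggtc
Hspe1: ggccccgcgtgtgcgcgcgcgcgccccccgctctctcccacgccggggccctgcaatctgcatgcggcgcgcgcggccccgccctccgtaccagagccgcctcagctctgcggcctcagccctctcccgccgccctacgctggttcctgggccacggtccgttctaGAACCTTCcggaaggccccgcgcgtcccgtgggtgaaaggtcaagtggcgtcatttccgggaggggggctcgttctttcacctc
Dnaja1: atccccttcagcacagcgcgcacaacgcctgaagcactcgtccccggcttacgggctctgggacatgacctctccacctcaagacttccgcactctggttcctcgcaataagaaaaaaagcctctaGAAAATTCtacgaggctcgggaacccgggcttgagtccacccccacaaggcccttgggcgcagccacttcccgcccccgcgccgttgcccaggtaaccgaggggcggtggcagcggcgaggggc

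TGACGTCA was in 1.79% of all promoters. Of genes with a promoter, 3.97% of those tested held it, 5.28% of those that rose (16 of 303, among them Dusp1 and Areg) and 4.14% of those that fell. The NF-kB site was in 2 of the 4 NF-kB genes that rose and had a promoter, against 2.07% of tested genes and 1.63% of all promoters. The heat shock element was also in 2 of these 4. It was in 2 of the 7 called AP-1 and ATF genes with a promoter too, against 6.86% of tested genes. None of these 7 AP-1 and ATF genes held TGANTCA, which was in 5.53% of tested genes and 7.81% of all promoters. With so few genes nothing is concluded from this, and no match says only that these letters are not in this window. A promoter of Tnfaip3 held TGACTCA 136 bases before the start and, 12 bases before it, the NF-kB letters read on the other strand. The other listed promoter of Tnfaip3, not shown, had no match. Shown because they belong to the leading phosphatase, repair factor and NF-kB brake, these promoters are Dusp1 at chr17:26508473-26508722 (minus strand), Areg at chr5:91139349-91139598 (plus strand) and Tnfaip3 at chr10:19015411-19015660 (minus strand), with matches in capitals.
Dusp1: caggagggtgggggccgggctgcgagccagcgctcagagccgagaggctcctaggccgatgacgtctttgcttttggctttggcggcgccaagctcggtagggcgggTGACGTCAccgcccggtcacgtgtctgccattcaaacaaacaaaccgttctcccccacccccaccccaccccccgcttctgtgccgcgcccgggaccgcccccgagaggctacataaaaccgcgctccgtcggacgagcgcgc
Areg: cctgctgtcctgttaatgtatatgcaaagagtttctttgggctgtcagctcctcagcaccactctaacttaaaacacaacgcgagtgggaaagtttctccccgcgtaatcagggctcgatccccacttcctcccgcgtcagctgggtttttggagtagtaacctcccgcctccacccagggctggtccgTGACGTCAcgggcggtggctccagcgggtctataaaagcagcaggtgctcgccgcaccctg
Tnfaip3: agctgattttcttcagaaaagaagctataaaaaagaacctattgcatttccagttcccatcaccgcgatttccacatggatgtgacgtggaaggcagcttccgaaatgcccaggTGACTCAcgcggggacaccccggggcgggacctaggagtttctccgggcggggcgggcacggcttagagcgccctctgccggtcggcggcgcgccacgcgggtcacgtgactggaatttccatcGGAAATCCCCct

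Genes through which Tregs suppress were higher in islets. Of 16 tested suppressive mediators, 8 rose and 0 fell, with a median of 0.67. Ctla4, which removes costimulatory ligands from antigen-presenting cells, was 10.07, 9.88 and 10.19 in islets and 7.52, 7.87 and 8.11 in spleen (2.21 ± 0.16 SE, adjusted p = 2.23e-10). Its FPKM in the authors' deposited table was 722 against 99.5. Areg encodes amphiregulin, a growth factor of epithelial repair, and was 7.40, 7.61 and 7.87 in islets and 4.91, 5.36 and 5.45 in spleen (2.39 ± 0.19 SE, adjusted p = 1.52e-09). Il10, the inhibitory cytokine, was 4.87, 4.97 and 6.23 in islets and 3.58, 3.99 and 3.79 in spleen. The groups did not overlap, but islet replicate 3 stood well above the other two, and the difference was 1.57 ± 0.26 SE (adjusted p = 0.000252). The authors' deposited tables did not call Il10, at a DESeq2 adjusted p of 0.51 and a Cuffdiff q of 0.0681.

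The genes of TGF-beta and of its activation rose as well. Tgfb1 was 7.25, 7.01 and 7.37 in islets and 6.37, 6.27 and 6.20 in spleen (0.93 ± 0.17 SE, adjusted p = 0.000677). Lrrc32, which encodes GARP, the anchor that holds latent TGF-beta on Tregs, was 4.61, 5.56 and 5.52 against 4.10, 3.48 and 4.32 (1.26 ± 0.24 SE, adjusted p = 0.00148). In the TGF-beta list, which holds these genes too, 6 of 14 tested genes rose and 0 fell, with a median of 0.48. The others that rose were Tgif1 (1.85), Skil (1.28), Smad7 (0.95) and Pmepa1 (0.76), all of which limit signalling by the receptor. The receptors Tgfbr1 and Tgfbr2 were at 0.02 and -0.01, and Smad2, Smad3 and Smad4, which carry the signal, did not pass. In the adenosine and prostaglandin list 4 of 13 rose: the kinase Sik1 (1.44), Crem (0.95), the prostaglandin E2 receptor Ptger2 (0.95) and the adenosine receptor Adora2a (0.86, adjusted p = 0.0806 without spleen replicate 1). Ptger2 was 0.59 without both islet libraries of the other title style and lost the call (adjusted p = 0.114). Entpd1 and Nt5e, the enzymes CD39 and CD73 that make adenosine, were 0.37 and -0.27 and did not pass. Ebi3, the IL-35 subunit, was 6.68 ± 0.16 in islets and 7.03 ± 0.16 in spleen and did not pass (adjusted p = 0.237).

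Co-inhibitory receptors had 5 of 12 tested members higher and 0 lower, with a median of 0.62. Lag3, which binds MHC class II, was 6.31, 6.52 and 6.84 in islets and 4.94, 5.18 and 5.11 in spleen (1.48 ± 0.19 SE, adjusted p = 5.93e-06). Tigit, a receptor for nectin-family ligands, was 7.51, 7.68 and 7.88 against 5.85, 6.54 and 6.81 (1.29 ± 0.20 SE, adjusted p = 0.000108). Cd200 rose by 0.95 (adjusted p = 0.00148) and Cd274, which encodes PD-L1, by 0.64 (adjusted p = 0.170 without spleen replicate 2). Pdcd1, which encodes PD-1, was 6.99, 6.90 and 6.44 in islets and 6.11, 5.97 and 6.45 in spleen. Islet replicate 3 lay just under the highest spleen library, and Pdcd1 did not pass (0.60 ± 0.19 SE, adjusted p = 0.0529). Havcr2, which encodes TIM-3, was 0.87 ± 0.27 SE (adjusted p = 0.0540).

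Of 14 costimulatory receptors, 2 rose and 1 fell, with a median of 0.05. Icos, which supports IL-10 production by Tregs, was 9.76, 9.84 and 10.29 in islets and 8.78, 9.19 and 8.87 in spleen (1.02 ± 0.16 SE, adjusted p = 9.55e-05). Tnfrsf1b, the TNF receptor TNFR2, rose by 0.72 and Slamf6 fell by 0.54. Both lost the call without spleen replicate 1 (adjusted p = 0.129 and 0.184) and without other single libraries. Tnfrsf4 and Cd28 were at 0.11 and 0.29 and did not pass, and Tnfrsf9, which ranged from 8.28 to 9.77 in islets, was 0.57 (adjusted p = 0.197). The Treg identity list as a whole had 5 of 22 tested members higher and 0 lower, with a median of 0.28. Besides Ctla4 and Lrrc32 these were the genome organizer Satb1 (0.95), the IL-2 receptor beta chain Il2rb (0.66, adjusted p = 0.0632 without spleen replicate 2) and Stat5a (0.74, adjusted p = 0.0766 without spleen replicate 1), which acts below that receptor. Nrp1, Ikzf4, Bach2, Foxo1 and Cd5 did not pass.

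**Figure D4:**
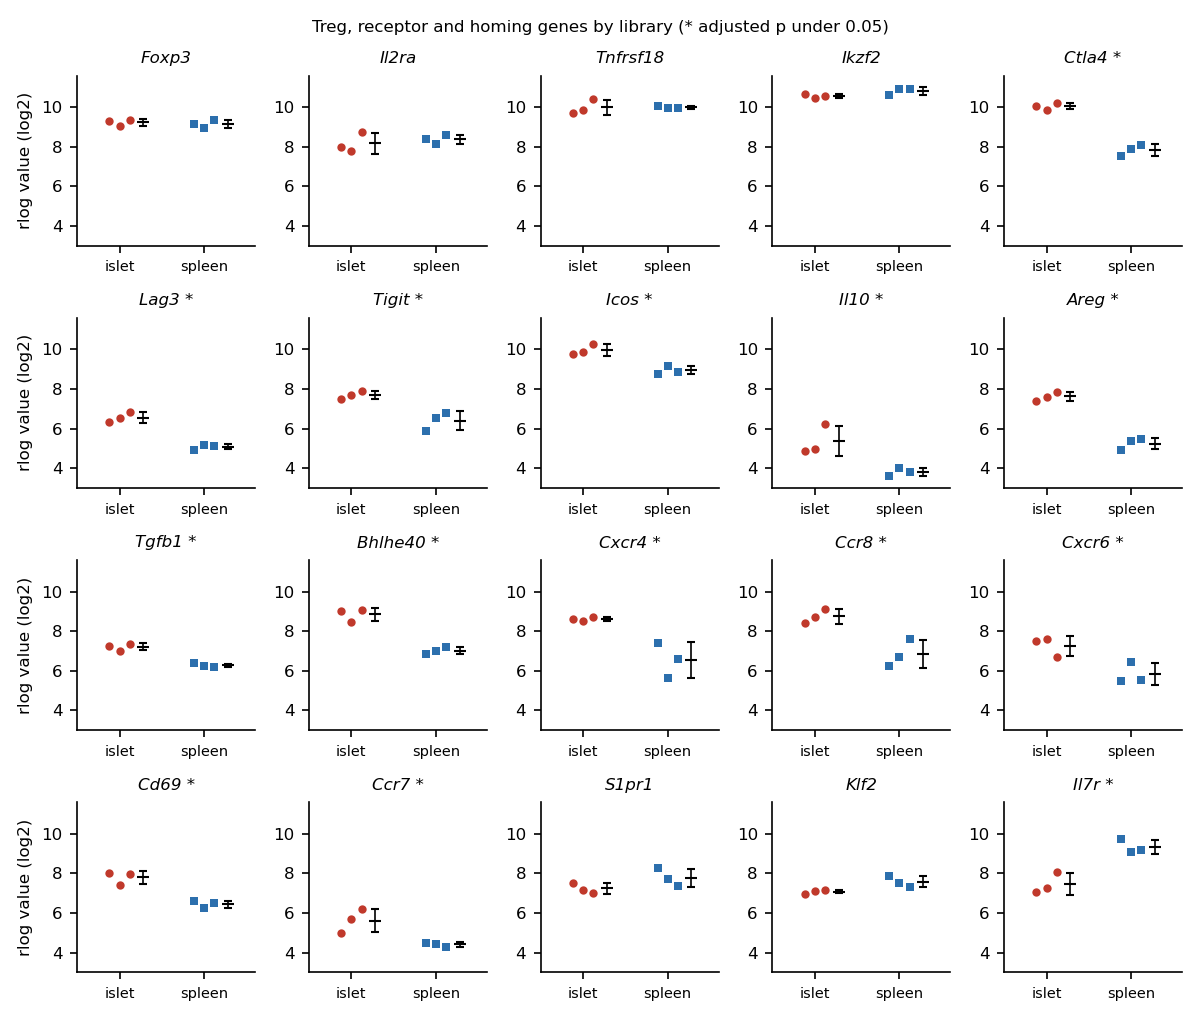
Each panel is a gene, with the rlog value (log2) of each library for islets (circles) and spleen (squares), the mean and SD of 3 libraries as a black bar, and a star for an adjusted p under 0.05. Foxp3, Il2ra, Tnfrsf18 and Ikzf2 overlap between the tissues, while Ctla4 is at 9.88 or more in islets and at 8.11 or less in spleen.

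Transcription factors of effector Tregs had 9 of 18 tested members higher and 0 lower, with a median of 0.59. Bhlhe40, a repressor of T cells in tissues, was 8.85 ± 0.34 in islets and 7.02 ± 0.18 in spleen (1.83 ± 0.17 SE, adjusted p = 3.61e-08). Nfil3 rose by 1.47 (adjusted p = 6.40e-05). Tbx21, which encodes the Th1 factor T-bet, was 5.68, 5.57 and 6.01 in islets and 4.54, 4.54 and 4.53 in spleen (1.22 ± 0.19 SE, adjusted p = 0.000131). Irf4 (0.91), Ikzf3 (0.87) and Prdm1 (0.75), which encodes Blimp-1 and marks IL-10-producing Tregs, also rose. Bcl6 (0.75), Myb (0.71) and Cebpb (0.69) passed with all libraries, and each lost the call without spleen replicate 1 (adjusted p = 0.0546, 0.218 and 0.0649) among others. Without that library, or without islet replicate 2, 6 of the 18 passed. Gata3, Rora, Maf and Klrg1, which mark tissue Tregs in other organs, lay between -0.24 and 0.23 and did not pass.

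In the list of tissue repair genes and Tregs with the IL-33 receptor ST2, 6 of 12 rose and 0 fell, with a median of 0.60. Ccr8, a chemokine receptor of tissue Tregs, was 8.40, 8.70 and 9.14 in islets and 6.25, 6.71 and 7.63 in spleen (1.88 ± 0.24 SE, adjusted p = 5.93e-06). The protease gene Furin rose by 1.47 (adjusted p = 9.92e-06), and the opioid precursor gene Penk by 0.78 (adjusted p = 0.261 without spleen replicate 1). The remaining calls were Areg, Il10 and Nfil3. Il1rl1, which encodes ST2 itself, was 7.21, 7.24 and 7.53 in islets and 7.96, 7.57 and 7.21 in spleen, overlapping ranges with a difference of -0.25 (adjusted p = 0.474).

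Receptors that guide cells changed in some members. Of 13 chemokine receptors of tissue homing, 3 rose and 0 fell, with a median of 0.29, where 4.63% of all tested genes rose. These 3 were called in each of the 6 fits without 1 library. Cxcr4, the receptor for CXCL12, was 8.63, 8.50 and 8.71 in islets and 7.43, 5.64 and 6.58 in spleen. The spleen libraries spread by 0.90 (SD, n = 3) against 0.11 in islets, and the difference was 2.06 ± 0.26 SE (adjusted p = 5.38e-06). Cxcr6, a receptor of tissue-resident lymphocytes, was 7.51, 7.63 and 6.70 against 5.50, 6.46 and 5.54 (1.44 ± 0.24 SE, adjusted p = 0.000246). Cxcr6 was 0.86 and lost the call without both islet libraries of the other title style (adjusted p = 0.0575), and Cxcr4 lost it with a robust eBayes (adjusted p = 0.0503). Ccr8 was the third. Cxcr3 and Ccr2, receptors of inflamed tissue, were 0.29 and -0.12, and Ccr4 and Ccr6 were -0.40 and -0.57, none of which passed. Among 16 integrins and adhesion genes 0 rose and 1 fell, Cd48 (-0.58, adjusted p = 0.0495), which lost the call without spleen replicate 1 (adjusted p = 0.267) and others.

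Genes of recirculation and rest moved in both directions, with 3 of 22 higher and 4 lower and a median of 0.01. Il7r, the IL-7 receptor chain that resting T cells need for survival, was 7.05, 7.25 and 8.10 in islets and 9.74, 9.07 and 9.20 in spleen. It was the largest decrease of all tested genes, at -1.87 ± 0.21 SE (adjusted p = 7.42e-07). Without both islet libraries of the other title style, that is with islet replicate 3 alone against 3 spleen libraries and its spread assumed to be like theirs, the difference was -1.24. Klf3, a Krüppel-like repressor of transcription, was 6.59, 6.53 and 6.16 in islets and 7.77, 7.51 and 7.27 in spleen (-1.09 ± 0.18 SE, adjusted p = 0.000204). Ms4a4b, a membrane protein of naive T cells, fell by 0.95 (adjusted p = 0.000232), and the lymphocyte sphingosine phosphate receptor S1pr4 by 0.69 (adjusted p = 0.142 without spleen replicate 1). S1pr1, through which T cells leave lymphoid organs, was 7.54, 7.16 and 7.03 against 8.26, 7.72 and 7.37, and Klf2, which drives it, was 6.97, 7.14 and 7.15 against 7.89, 7.50 and 7.34. Neither passed (-0.54, adjusted p = 0.0976, and -0.49, adjusted p = 0.0828).

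The 3 increases in that list were Cd69, Satb1 and Ccr7. Cd69, which pulls S1pr1 from the cell surface, was 8.04, 7.40 and 7.96 in islets and 6.60, 6.23 and 6.50 in spleen (1.35 ± 0.18 SE, adjusted p = 1.33e-05). Ccr7, the receptor that leads T cells into lymph nodes, was 5.01, 5.68 and 6.18 in islets and 4.50, 4.45 and 4.29 in spleen (1.21 ± 0.23 SE, adjusted p = 0.00129). It was named after its values were seen. Every islet library was above the spleen libraries in Ccr7, while Tcf7, another gene of naive and memory T cells, was 5.61, 5.14 and 3.69 in islets and 3.91, 4.16 and 4.07 in spleen and did not pass.

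Among other decreases, Dtx1, which encodes the Notch pathway ligase Deltex1, was 6.07, 6.36 and 5.75 in islets and 7.18, 7.37 and 7.11 in spleen (-1.16 ± 0.18 SE, adjusted p = 0.000111). Txnip, which restrains glucose uptake, was 6.99, 6.77 and 6.40 against 8.04, 7.71 and 7.52 (-1.04 ± 0.18 SE, adjusted p = 0.000432). Atp1b3, a sodium pump subunit, fell by 0.92 (adjusted p = 0.000405). The zinc finger genes Zfp950 (-1.05) and Zfp329 (-0.97), the factor gene Crebl2 (-0.95) and the Golgi protein Gcc2 (-1.01) fell as well. Gcc2 was -0.54 and lost the call without both islet libraries of the other title style (adjusted p = 0.114). Hist1h1b, a linker histone gene, was -0.98 and lost the call without spleen replicate 2 (adjusted p = 0.0678), and Dscam, also -0.98, without spleen replicate 3 (adjusted p = 0.0527). S100, annexin and galectin genes had 4 of 18 lower and 1 higher, with a median of -0.10. S100a4, a calcium-binding protein of memory and effector T cells, was 10.23, 9.88 and 10.15 in islets and 11.08, 10.99 and 10.71 in spleen (-0.84 ± 0.14 SE, adjusted p = 0.000237), and Emp3 fell by 0.85 (adjusted p = 0.000761). Crip1 (-0.53), S100a10 (-0.41) and Plp2 (0.59) lost the call without spleen replicate 1 (adjusted p = 0.224, 0.248 and 0.186) among others.

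Some TCR signalling genes were higher. Of 26 tested members, 7 rose and 0 fell, with a median of 0.22, where 4.63% of all tested genes rose. Plcg1, the phospholipase below the receptor, was 6.28, 5.95 and 5.97 in islets and 5.15, 5.11 and 5.13 in spleen (0.94 ± 0.18 SE, adjusted p = 0.00154). Zap70, the kinase that binds the activated receptor, was 8.43, 8.42 and 8.42 against 7.74, 7.76 and 7.77 (0.67 ± 0.14 SE, adjusted p = 0.00434). The spread within each tissue was 0.01 for Zap70. The coreceptor Cd4 and the negative regulators Ptpn6 (0.82), Ubash3a (0.78), Cd6 (0.78) and Ptpn22 (0.74) rose too, the last pair not without spleen replicate 1 (adjusted p = 0.0569 and 0.0663). Lck, Cd247, Lat and Vav1 lay between 0.04 and 0.40 and did not pass. Of 12 tested genes in the list linked to anergy, the unresponsive state of T cells, 5 rose and 0 fell. They were Egr2 (1.37), the adaptor Sh2d2a (1.19), the diacylglycerol kinase Dgkz (0.69), the ligase Cblb (0.68) and Ndfip1 (0.52). That list did not hold the ligase gene Dtx1, which fell. Dgkz, Cblb and Ndfip1 lost the call without spleen replicate 1 (adjusted p = 0.0547, 0.0614 and 0.157), when 2 remained called. Dgkz was 0.22 without both islet libraries of the other title style (adjusted p = 0.545).

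Cytokine receptor and SOCS genes had 3 of 23 higher and 2 lower, with a median of 0.09. The shared IL-6 family chain Il6st rose by 0.98 (adjusted p = 0.00225), beside Il2rb and Il21r (0.64, adjusted p = 0.153 without spleen replicate 2), while Il7r and the common gamma chain Il2rg fell. Il2rg was 9.20, 9.11 and 9.28 in islets and 9.69, 9.62 and 9.67 in spleen (-0.46 ± 0.13 SE, adjusted p = 0.0358, and 0.156 without spleen replicate 1). Of 12 secreted factors tested, 3 rose: Ifng (1.11 ± 0.20 SE, adjusted p = 0.000713), the chemokine Xcl1 (adjusted p = 0.00321) and Ccl1 (0.88, adjusted p = 0.204 without spleen replicate 1), which is a ligand of Ccr8. Ifng was 5.53, 5.08 and 5.05 in islets and 4.08, 4.32 and 3.93 in spleen. With Tbx21 it made 2 of 15 Th1 genes higher, while Cxcr3, Stat4 and Ccl5 did not pass. Of 6 tested Th2 and Th17 genes, 0 were called. Of 9 cytotoxic granule genes 1 rose, the cathepsin Ctsw (1.73 ± 0.19 SE, adjusted p = 5.43e-07). Gzmb was 8.32, 8.05 and 8.65 against 8.19, 7.88 and 7.76 and did not pass (adjusted p = 0.169). In the Bcl2 family 1 of 12 rose, the death-promoting Pmaip1 (1.48 ± 0.18 SE, adjusted p = 5.08e-06). Bcl2, Mcl1 and Bcl2l11, which decide T cell survival, were 0.22, -0.31 and 0.44, and of 8 Gimap GTPases 0 were called.

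Glycolysis had 6 of 15 tested members higher and 0 lower, with a median of 0.49, led by hexokinase Hk2 (1.05 ± 0.25 SE, adjusted p = 0.00937) and the glucose transporter Slc2a1 (0.79, adjusted p = 0.0163). The others were Pfkp (0.78), Gapdh (0.59), Gpi1 (0.56) and Pkm (0.49). The count was 1 without spleen replicate 1 or spleen replicate 2, 3 without spleen replicate 3, 4 without islet replicate 3 and 3 after quantile normalization. The other glucose transporter Slc2a3 was -0.50 (adjusted p = 0.0960). Of 32 oxidative phosphorylation subunits 0 were called, with a median of 0.07 and a range from -0.45 to 0.42. The amino acid transporter chain Slc3a2 was 8.38, 8.46 and 8.87 in islets and 7.25, 7.05 and 7.20 in spleen (1.40 ± 0.16 SE, adjusted p = 1.18e-06), and Slc38a2, a glutamine carrier, rose by 0.94 (adjusted p = 0.000177). They were the 2 of 12 transporters called. In cholesterol synthesis 2 of 18 rose, among them Insig1 (0.64), which did not pass without islet replicate 1 (adjusted p = 0.128) or any other single library.

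Some stress genes outside the chaperones rose. In the list of unfolded protein and integrated stress response genes 3 of 16 rose, with a median of 0.25. Over all tested genes 4.63% rose. Ppp1r15a, which encodes the phosphatase subunit GADD34 that restarts translation, was 7.10, 6.84 and 7.16 in islets and 4.81, 4.98 and 5.04 in spleen (2.09 ± 0.18 SE, adjusted p = 7.13e-09). Atf3 rose by 0.93, and the disulfide isomerase Pdia6 by 0.73 (adjusted p = 0.129 without spleen replicate 1). Ddit3, Atf4 and Xbp1 were 0.52, 0.25 and 0.07 and did not pass. Of 10 hypoxia genes 1 rose, Slc2a1, which lost the call without islet replicate 1 (adjusted p = 0.0819) and without each spleen library.

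Interferon-induced genes had 2 of 29 higher and 3 lower, with a median of -0.16. The GTPase Igtp had a mean of 8.95 ± 0.06 for islets and 8.15 ± 0.16 for spleen (0.80 ± 0.14 SE, adjusted p = 0.000763), and the immunoproteasome subunit Psmb8 rose by 0.59 (adjusted p = 0.0552 without spleen replicate 2). Gbp7 was 8.44, 8.58 and 8.51 against 9.14, 9.18 and 9.12 (-0.64 ± 0.14 SE, adjusted p = 0.00444). Ifi203 fell by 0.80 (adjusted p = 0.00447). Ifit1 was -0.96, with islet replicate 1 at 4.83 near the spleen range of 4.91 to 5.21, and lost the call without islet replicate 2 (adjusted p = 0.0796), spleen replicate 1 (0.0574) or spleen replicate 2 (0.0526). Ifit1bl1, a relative of it, fell by 1.23 ± 0.19 SE (adjusted p = 0.000136). Irf7, Mx1 and Usp18 were -0.22, -0.47 and -0.37 and did not pass.

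Cell cycle genes had 2 of 30 higher and 1 lower, with a median of 0.13. Over all tested genes 4.63% were higher and 2.18% lower. The inhibitor gene Cdkn1a (0.74) and the helicase subunit Mcm6 (0.59) passed, and neither did without islet replicate 3 (adjusted p = 0.208 and 0.122). No member was called higher without islet replicate 3, spleen replicate 1 or spleen replicate 3. Cyclin D2, Ccnd2, was -0.70 (adjusted p = 0.0560 without islet replicate 2), and -0.24 without both islet libraries of the other title style. Mki67, which marks dividing cells, was 0.09, and Top2a and Cdk1 were -0.48 and -0.49, and none of them passed. Of 53 cytosolic ribosomal protein genes 3 were higher, beside 4.63% of all tested genes. In 48 of the 53 the difference was positive, as it was in 4190 of all 8438 tested genes, and the list median was 0.16. The count called higher was 9 without islet replicate 1 and 1 without spleen replicate 1.

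**Figure D5:**
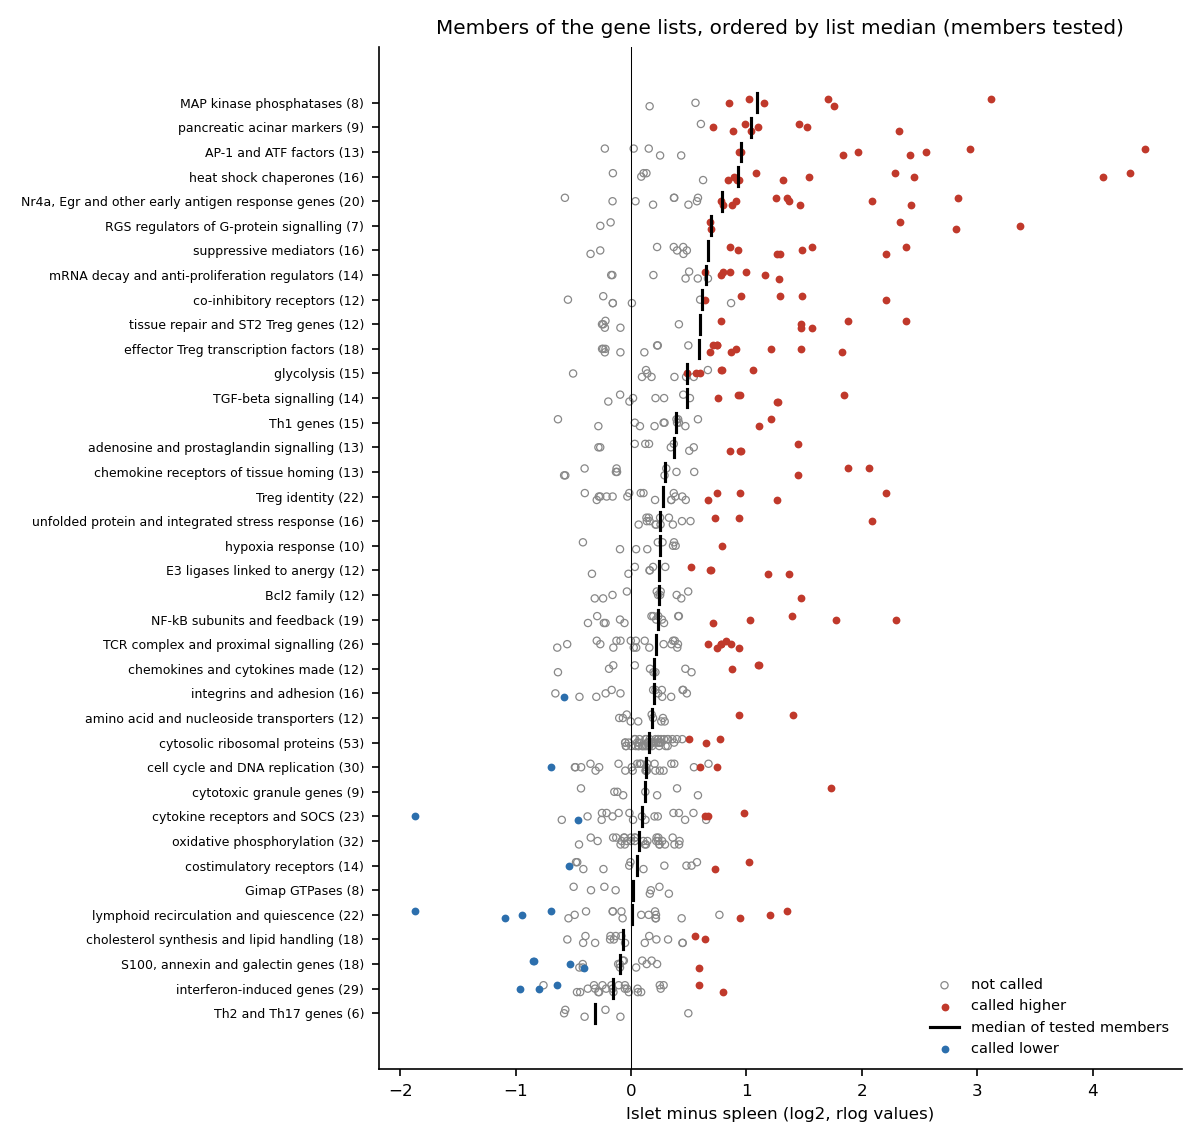
Each row is a list with at least 6 tested genes, each point the islet minus spleen difference (log2, rlog values) of 1 member, filled red where called higher, filled blue where called lower and open where not called, and the black bar the list median. Medians run from 1.09 for the MAP kinase phosphatases to -0.31 for the Th2 and Th17 genes.

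Transcripts of other cells were counted beside these results. Of 9 tested markers of pancreatic acinar cells, which secrete digestive enzymes and surround the islets, 8 were higher in islets and 0 lower. These 8 had an FPKM of 0 in spleen in the authors' deposited table, so they reached the count filter through the islet libraries. The count of 8 of 9 was thus largely set by the filter. Prss2, the tested marker that was not called, had an FPKM of 47.1 in islets and 9.37 in spleen. Ctrb1, which encodes chymotrypsinogen, was 5.51, 6.18 and 6.19 in islets and 3.65, 3.36 and 3.90 in spleen (2.32 ± 0.21 SE, adjusted p = 3.00e-08), and Clps and Pnlip rose by 1.53 and 1.46. The call of Cela3b was lost without spleen replicate 2. In the authors' deposited table the FPKM of 32 acinar markers summed to 778 in islets and 11.7 in spleen, with 27 of them at 0 in spleen and 4 at 0 in islets. The mean rlog value over the list was 2.43, 2.58 and 2.50 in the islet libraries and 1.91, 1.87 and 1.97 in the spleen libraries. Insulin transcripts were below the filter, at an FPKM of 6.93 (Ins1) and 30.6 (Ins2) in islets and 0 in spleen in the same table. The glucagon gene Gcg was higher in 1 spleen library, at 4.24 against 2.63 to 3.25 in the other 5, and did not pass (-0.72, adjusted p = 0.0571). The authors' deposited DESeq2 table called Gcg lower in islets (adjusted p = 0.00602). Of the tested markers of B cells (3), of myeloid cells (2) and of duct, stroma and endothelium (2), 0 were called. Those of B cells were Cd74, H2-Aa and H2-Eb1, and those of myeloid cells were Cst3 and Ctss. No erythroid marker passed the filter, and Cd8a was listed at 0. Markers below the filter were not tested, and their deposited FPKM differed in both directions. The myeloid marker C1qa was 17.4 in islets and 1.65 in spleen, and Cd8b1 was 11.3 and 3.25. The myeloid marker Tyrobp was 1.45 in islets and 12.6 in spleen, and the B cell marker Cd79b was 0.505 and 8.69. Of 2 CD8 T cell and NK cell markers tested, 1 was called, Xcl1. Ribosomal RNA reads also differed, with Rn45s at 14.83, 14.95 and 13.92 in islets and 13.72, 13.45 and 13.85 in spleen (0.89, adjusted p = 0.00159), which like Lars2 (1.58) was named after its values were seen. Acinar transcripts and Rn45s thus moved with the tissue, and their part in the other results was not tested. In bulk RNA, fewer cells of a type and less RNA per cell cannot be told apart.

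Tregs with the high affinity TCR 4-8 had been compared between the same tissues in a table normalized on its own. Of the 575 genes, 569 were tested there too, 553 had the same sign, and 294 were called in the same direction (51.7% of these genes and 42.9% of the 685 called in 4-8, which were 8.26% of the 8298 genes tested in both). No gene was called in opposite directions. The share with the same sign over all genes tested in both is not given here. The labels do not say which libraries shared mice. Fos differed by 4.46 in 12-4.4m1 and 4.24 in 4-8, Hspa1a by 4.32 and 4.15, Ctla4 by 2.21 and 2.03, Ccr8 by 1.88 and 2.30, and Il7r by -1.87 and -1.48. Areg differed by 2.39 and 1.67, Il10 by 1.57 and 3.04, and Klf3 by -1.09 and -2.09. Satb1 was called in 12-4.4m1 (0.95) and not in 4-8 (0.23, adjusted p = 0.465), as was Gcc2 (-1.01 against -0.42). None of these differences between the TCRs passed when the difference of the tissue differences was tested over 8298 genes, where 462 genes had an unadjusted p under 0.05 and 1 gene (0.0121%) passed, Lag3 (limma).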

How the data were processed

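RNA of sorted Tregs was lysed with Triton X-100, reverse transcribed, amplified and made into Nextera XT libraries, per the labels' protocols. The submitters' processing notes name TopHat 1.0.0, Cufflinks, STAR 1.1.0, DESeq, DESeq2 1.1.0 and the builds mm10 and GRCm38 as used by the authors, with no role for each. The authors deposited rlog values, which are log2 values of normalized counts, for each library. The authors' deposited DESeq2 table gives mean normalized counts (a signal over the 6 libraries), log2 fold changes and p-values, and their deposited Cuffdiff table gives 1 FPKM per group, with no spread, and q-values. Raw counts per library were not used here, so depth and counting intervals are unknown.

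The 3 islet and 3 spleen libraries were compared on rlog values with limma 3.58.1 (R 4.3.3, trended eBayes) over 8438 genes with a mean normalized count of at least 10, adjusted by Benjamini-Hochberg over all of them at a threshold of 0.05. In the list of 24421 rows, 4 rows with symbols that occur more than once were left out. The difference of tissue differences between TCRs was fitted on both rlog tables, each normalized on its own. An exact permutation test of 3 against 3 libraries cannot go below 0.1. The procedure was tested on simulated data.

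The gene lists and the members named were chosen with earlier results of these data known. The naming rule took the 15 largest differences in each direction among called genes whose islet and spleen libraries did not overlap. Predicted genes, receptor segments and ribosomal pseudogenes were left out of these. It also took up to 4 members of each of 44 lists by smallest p, and fixed Treg genes. Members named beyond that rule, to complete a count or to show one that did not pass, were chosen after their values were seen. Alternatives were other filters, eBayes settings, normalizations, a replicate block, leaving out libraries, and the authors' tests. Promoters came from RefSeq, and gene positions from GENCODE, on GRCm38. Some genes that were tested are not reported here.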

Additional observations from a re-analysis of the deposited data

Results flagged for a closer look

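Lag3, an inhibitory receptor that binds MHC class II, was the only gene of 8298 whose islet minus spleen difference differed between the TCRs by limma. The difference was 1.48 in 12-4.4m1 and 3.02 in 4-8 Tregs, so 12-4.4m1 minus 4-8 was -1.54 ± 0.26 SE (adjusted p = 0.0206). In 12-4.4m1 it was 6.31, 6.52 and 6.84 in islets and 4.94, 5.18 and 5.11 in spleen, and the means in 4-8 were 10.27 and 7.25, on a scale normalized separately. The authors' deposited DESeq2 difference in 12-4.4m1 was larger, at 2.29, with FPKM of 72.0 in islets and 10.3 in spleen. Their matching 4-8 values are not given here. Shrinkage of rlog values may differ between the TCRs' tables, and its part in this call was not tested. With each of the 12 libraries omitted in turn, the call held 4 times, with adjusted p up to 0.211. It was lost without islet 12-4.4m1 replicate 1 or 2, spleen 12-4.4m1 replicate 2 or 3, islet 4-8 replicate 1 or 3, or spleen 4-8 replicate 1 or 3, and in eBayes without a trend (0.0806).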

How the results depend on the processing

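Over the 6 fits that left out 1 library the calls ranged from 288 to 610, with 228 to 396 higher and 60 to 214 lower, against 575, 391 and 184. Without spleen replicate 1 they were 228 higher and 60 lower (288 in all), without spleen replicate 2 they were 233 and 80 (313 in all), and without spleen replicate 3 there were 115 lower. Without both islet libraries of the other title style 301 genes were lower. The authors' DESeq2 table called 108 lower, and Cuffdiff, in the authors' hands, called 905 genes, of which 596 were higher and 309 lower. These causes were not tested. Filters, eBayes settings, median centring and quantile normalization gave 480 to 568 calls. With the replicate number as a block there were 724 calls (462 higher, 262 lower). Deviations of same-numbered libraries from their group means correlated at 0.040, -0.033 and -0.0085. With 3 libraries per group this cannot tell whether same-numbered libraries shared mice. The count for the difference between TCRs was 1, was 0 without a trend, and ranged from 0 to 1 over the fits that left out 1 library, in either count. Of 179 named genes 120 were called, 92 of them in all 6 fits without 1 library. No result changed direction while called under the alternatives run. Depth per library is unknown, and rlog shrinks differences of genes with few reads.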

Other observations

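Genes outside the lists, chosen after their values were seen, also differed by limma. Odc1, the rate-limiting enzyme of polyamine synthesis, rose by 2.12 ± 0.21 SE (adjusted p = 1.14e-07), while Srm and Sms, which act after it, were 0.23 and -0.57 and did not pass. The demethylase gene Kdm6b rose by 1.39. In the Notch pathway, Notch1 (0.90) and its nuclear partner Rbpj (0.96) rose while Dtx1 fell by 1.16. Notch2 was 0.29 and did not pass, and Dtx3, a relative of Dtx1, was 0.79 (adjusted p = 0.0111) but passed in only 3 of the 6 fits with a library omitted. The interferon-linked genes Ddx60, Slfn5 and Samd9l fell by 0.91, 0.87 and 0.80, while Ifi27l2a was -0.11 and did not pass. Cytokine signalling genes Jak3 (1.36) and Stat3 (0.94) rose, and so did Gadd45b (1.67), the Myc antagonist Mxd1 (1.64), the triglyceride synthesis enzyme Dgat1 (1.80), the inositol transporter Slc5a3 (1.62), Nfatc2 (0.89) and the clock gene Per1 (0.91). Each gene given here as risen or fallen, Dtx3 apart, stayed past the threshold with any 1 of the 6 libraries omitted.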
